A study of Mus musculus with 8 samples.

Results

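Regulatory T cells (Tregs) were compared with conventional CD4+ T cells (Tconvs) from the spleens of control mice that carried no CD70 transgene. The 4 libraries of this comparison, 2 of Tregs and 2 of Tconvs, were chosen by their group out of the 8 libraries of the series. The other 4 libraries came from the same subsets of CD11c-Cd70tg;CD27+/- mice (CD70Tg), in which dendritic cells carry a Cd70 transgene under the CD11c promoter. Genes were kept when the deposited value was at least 60 in at least 2 of the 4 control libraries, which left 12134 of 48505 named genes, and all values below are in the deposited unit, CP20M, the number of reads on a gene for every 20000000 counted.

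The control mice were CD27+/-, that is, heterozygous for the loss of Cd27, and so were the CD70Tg mice. The labels give their genotype as WT, the table columns as KO and the study's methods as CD27+/-, and the last was used here. For the Treg samples the cell type field of the labels reads regular CD4+ T cells, while their titles and descriptions give regulatory cells, which was used here. All mice were 6 to 8 weeks old and carried a Foxp3eGFP reporter, so that Tregs could be sorted as CD3+ CD4+ GFP+ cells and Tconvs as CD3+ CD4+ GFP- cells. Before the sort, magnetic depletion removed cells bearing, among other markers, CD8β, CD11c, CD49b, GR1, Ter119 or MHCII, and for Tconvs also cells bearing CD25. Nothing states whether the duplicates came from separate mice, so the p-values measure the spread between these libraries, which may be technical.

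Tregs are the CD4+ T cells that hold back immune responses, and the transcription factor Foxp3 sets their programme. They carry the high-affinity IL-2 receptor but make little IL-2 themselves, so they depend on IL-2 from Tconvs, which reaches the nucleus through STAT5. Their known means of suppression include CTLA-4, which strips costimulatory ligands from dendritic cells, the ectoenzymes CD39 and CD73, which turn extracellular ATP into adenosine, and the activation of latent TGF-β on the cell surface. Splenic Tconvs of young mice are mostly naive cells that recirculate through lymphoid tissue.

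The Treg libraries were shallower. The values rise in steps of the size of 1 read, and from the steps the Tconv libraries held 19.43 and 9.51 M (mega) reads on genes and the Treg libraries 4.1 and 4.52 M. Of the CD70Tg libraries 3 held between 1.9 and 6.9 M, and the fourth showed no steps, so its depth is unknown. The value given by 3 reads, used as the floor below which a level cannot be told from 0, was 3.1 and 6.3 in Tconvs and 14.6 and 13.1 in Tregs. Libraries of a subset resembled each other, with a Pearson correlation of 0.99 between the log2 values of the Tconv libraries and of 0.988 between those of the Treg libraries, across 12134 genes that are not independent. All the same, 93 genes were over 2-fold higher in the first Tconv library than in the second and 63 over 2-fold lower. In bulk RNA, fewer cells of a type and less RNA per cell cannot be told apart.

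Tregs and Tconvs of control mice differed widely, and more genes were higher in Tregs than lower. In a limma fit over all 8 libraries with Benjamini-Hochberg adjustment, 1682 of 12134 genes (13.9%) were higher in Tregs, with an adjusted p under 0.05 and a log2 fold change over 1, and 530 genes (4.37%) were lower. Higher genes thus made up 76% of the 2212 calls. Log2 fold changes were taken on the value plus 5, and over all genes tested their median was 0.05. Of genes with a mean over 3000, 6.68% were higher and 3.34% lower, with a median of -0.10. Of those with a mean of up to 100, where a gene could pass the filter through 1 subset alone, 35.9% were higher and 8.7% lower, with a median of 0.57. A total of 537 genes were higher by a log2 fold change over 2 and 140 lower by as much, and 48 and 26 passed 4.

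**Figure D1:**
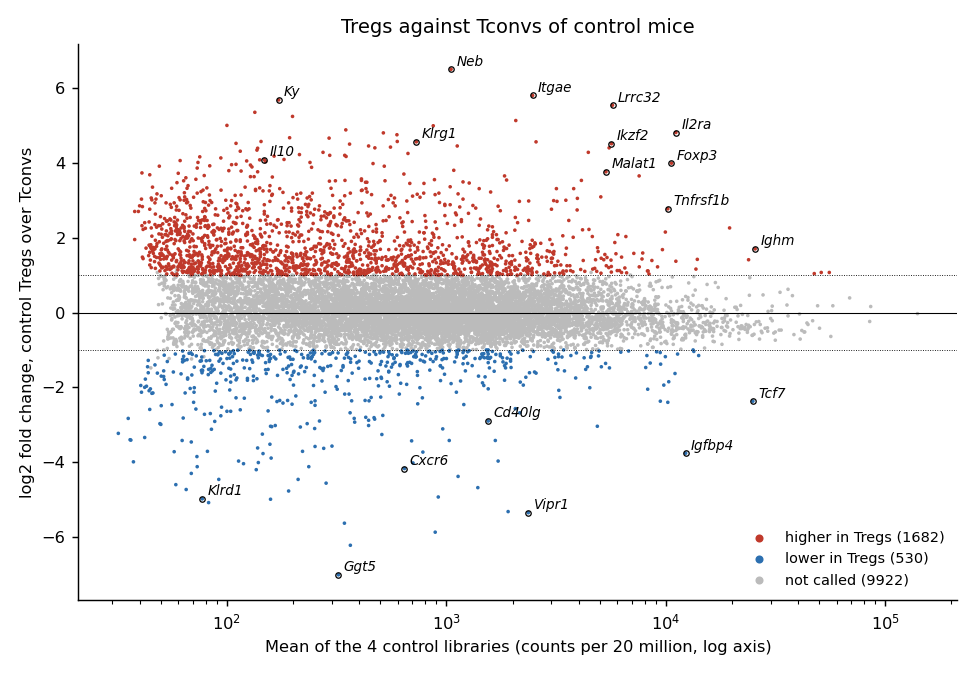
Mean of the 4 control libraries (horizontal axis, CP20M, log axis) against the log2 fold change of control Tregs over Tconvs (vertical axis) for 12134 genes. Red points are the 1682 genes higher in Tregs, blue points the 530 lower and grey points the rest. The spread of red points is widest at low means, and Neb, Itgae and Ky stand highest and Ggt5 lowest.

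The markers of the sort came first. Foxp3 (chromosome X, 7573644 to 7595245, mm10) had values of 1039 and 1497 in Tconvs and 19769 and 20102 in Tregs. Its log2 fold change was 3.99 ± 0.14 (SE), a 15.7-fold difference in means. Foxp3 was used in the sort through GFP, so this is a description, and the Tconv level was above the floor in both libraries. Il2ra, which encodes CD25, the α chain of the IL-2 receptor, stood at 599 and 965 in Tconvs against 23490 and 19497 in Tregs. CD25-bearing cells had been depleted from Tconvs only, so Il2ra was used in the purification and its difference is given as a description. Ikzf2 and Ctla4 were not used in the sort. Ikzf2 (Helios; chromosome 1, 69531214 to 69687245) rose from 564 and 388 in Tconvs to 9792 and 11844 in Tregs, 22.7-fold, and Ctla4 from 493 and 496 to 10142 and 10898, 21.3-fold (adjusted p = 6.1e-12 and 1.4e-11, limma). For all 4 markers both Treg libraries lay above both Tconv libraries.

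Of 24 Treg identity genes, 23 passed the filter and all 23 were higher in Tregs, with a median log2 fold change of 3.49 against 0.05 for all genes tested. Slc22a2, with values between 8 and 27, was not tested. Itgae and Lrrc32 were far apart between the subsets. Itgae (CD103, the integrin α chain that binds E-cadherin; chromosome 11, 73090583 to 73147446) had values of 63 and 107 in Tconvs and 4664 and 5031 in Tregs. Lrrc32 (GARP, which holds latent TGF-β at the cell surface; chromosome 7, 98489283 to 98502181) had 200 and 277 against 11665 and 10684. In neither gene did any Tconv library come near a Treg library, and the folds of the means were 57.0 and 46.9. Izumo1r, FR4, which marks Tregs and anergic T cells, had a smaller difference, with 7099 and 5292 in Tconvs and 16906 and 14926 in Tregs. The others lay between, among them Ikzf4 (Eos, a corepressor of Foxp3; 10.1-fold), Nrp1 (neuropilin-1; 7.7-fold), Gpr83 (8.07-fold), Tnfrsf18 (GITR; 4.08-fold) and Capg (an actin-capping protein; 4.66-fold).

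**Figure D2:**
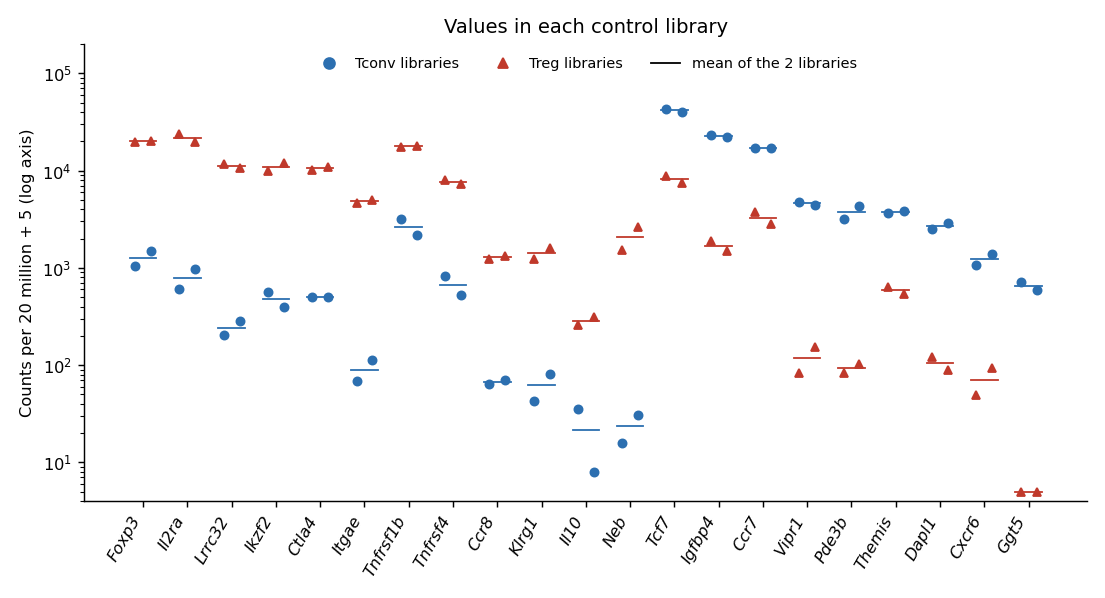
Values in each of the 4 control libraries for 21 genes (vertical axis, CP20M plus 5, log axis), with Tconv libraries as circles, Treg libraries as triangles and the mean of each pair as a bar. For every gene shown both Treg libraries lie on one side of both Tconv libraries, from Foxp3 on the left, higher in Tregs, to Ggt5 on the right, at 0 in both Treg libraries.

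A short motif that STAT factors bind, TTCNNNGAA (which reads the same on both strands), was searched on both strands in the 250 bases before each gene's start in the RefSeq promoter set (GRCm38.p6), because IL-2 signalling feeds the identity genes. It stood in 3 of the 15 identity genes that the set holds, and these 3 are shown with the motif in capitals. The windows lie at chrX:7580233-7580482 (plus strand, Foxp3, inside the annotated gene), chr5:21372423-21372672 (plus strand, Fgl2) and chr4:156026072-156026321 (plus strand, Tnfrsf18).
Foxp3: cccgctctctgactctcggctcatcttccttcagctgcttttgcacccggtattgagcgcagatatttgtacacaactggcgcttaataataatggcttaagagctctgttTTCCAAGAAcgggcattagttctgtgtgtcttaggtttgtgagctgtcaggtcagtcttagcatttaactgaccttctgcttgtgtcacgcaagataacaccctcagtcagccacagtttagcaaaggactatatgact
Fgl2: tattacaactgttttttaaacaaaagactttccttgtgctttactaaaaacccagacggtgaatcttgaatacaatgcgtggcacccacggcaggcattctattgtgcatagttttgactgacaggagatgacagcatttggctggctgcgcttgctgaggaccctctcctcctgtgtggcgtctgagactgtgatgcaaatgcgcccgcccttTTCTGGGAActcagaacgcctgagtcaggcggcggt
Tnfrsf18: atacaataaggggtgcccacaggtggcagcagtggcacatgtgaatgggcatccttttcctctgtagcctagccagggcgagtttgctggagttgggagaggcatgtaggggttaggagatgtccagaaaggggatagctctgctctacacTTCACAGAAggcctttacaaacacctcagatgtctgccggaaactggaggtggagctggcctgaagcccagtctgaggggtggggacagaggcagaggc
The same share, 3 of 15, was found for the resting T cell genes described below, of which 12 of 20 were lower in Tregs. The motif stood in 8.13% of all 27025 genes of the set, taking for each gene the window with most matches, in 7.17% of the tested genes in the set, in 7.83% of those higher in Tregs and in 6.42% of those lower. A match is a description of the letters only.

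Among 13 suppressive effectors tested, 10 were higher in Tregs (76.9%, against 13.9% of all genes tested) and none lower. Some, such as Il10, Ebi3 and Itgb8, passed the filter through their Treg values alone. With a value above 10 required in every control library 12 were tested and 9 were higher. The ectoenzymes that make adenosine were both higher. Entpd1 (CD39) had values of 133 and 124 in Tconvs and 1461 and 1441 in Tregs, and Nt5e (CD73) had 1257 and 831 against 6765 and 6918. Itgb8, the integrin chain that releases active TGF-β from GARP, stood at 53 and 38 in Tconvs and 1053 and 1082 in Tregs, 23.5-fold higher. The transcript of the ligand itself did not follow, since Tgfb1 had 4768 and 4150 in Tconvs and 4600 and 3994 in Tregs (log2 fold change -0.05 ± 0.12). Of the suppressive cytokines, Il10 was low but higher in Tregs, with 30 and 3 in Tconvs and 253 and 307 in Tregs, and Ebi3, a subunit of IL-35, had 15 and 11 against 136 and 171. Il12a, the other subunit of IL-35, was at 0 in 3 libraries and at 2 in the first Tconv library, so that it was not detectable at this depth. Gzmb, the protease granzyme B, and Penk, which encodes the enkephalin precursor, were 12.3-fold and 16.8-fold higher, from 72 and 51 to 850 and 666 and from 39 and 65 to 796 and 951.

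In the IL-2 pathway the receptor chains α and β and feedback inhibitors of the SOCS family were higher in Tregs. Of 16 genes of the pathway, 7 were higher (43.8%, against 13.9% of all genes tested) and 1 lower in Tregs, with a median of 0.74. The 7 include Il2ra, which was used in the purification. Besides Il2ra, the β chain Il2rb was 4.78-fold higher, with 6410 and 7075 in Tconvs and 33637 and 30872 in Tregs, whereas the common γ chain Il2rg had 16657 and 16757 against 14150 and 14103 (log2 fold change -0.24 ± 0.13, adjusted p = 0.14, limma). Cish and Socs2, STAT5 targets that dampen cytokine signalling, rose from 850 and 691 to 5634 and 4852 and from 74 and 86 to 976 and 964. Pim1, a survival kinase that STAT5 induces, was 4.08-fold higher at 10423 and 10697, while its relative Pim2 was 2.63-fold lower, with 2181 and 1434 in Tconvs and 753 and 622 in Tregs. Stat5a, with 2310 and 1559 against 2815 and 2474, passed the test at a log2 fold change of 0.47, under the threshold. Il2 itself did not pass the filter, with 21 and 38 in Tconvs and 5 and 0 in Tregs. Against the floor of the Treg libraries Il2 was at least 2.13-fold lower in Tregs, with no test.

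Of 15 TNF receptors tested, 5 were higher in Tregs (33.3%, against 13.9% of all genes tested) and none lower, with a median of 0.51. The 5 were Tnfrsf18, Tnfrsf4 (OX40), Tnfrsf9, Tnfrsf1b (TNFR2) and Tnfrsf8 (CD30). Tnfrsf4 had values of 821 and 515 in Tconvs and 7900 and 7229 in Tregs, and Tnfrsf9 had 600 and 555 against 5877 and 5640. Tnfrsf1b reached 17474 and 18052 in Tregs from 3155 and 2145. Tnfrsf8 was low in Tconvs, at 66 and 21, and stood at 859 and 942 in Tregs. These 5 receptors were 4.08-fold to 20.7-fold higher. Cd27, the receptor of CD70, had 3239 and 2980 in Tconvs and 5173 and 5543 in Tregs, a log2 fold change of 0.78 ± 0.11 that passed the test (adjusted p = 2.6e-05, limma) but not the threshold of 1. Downstream, 5 of 22 NF-kB and TRAF genes were higher (22.7%, against 13.9% of all genes tested) and 1 was lower, and a further 10 passed the test with a smaller change. Nfkbiz, the inducible nuclear IκBζ, rose from 239 and 210 to 1388 and 1353, 6.1-fold, and Rel, the c-Rel subunit needed for Treg development, from 961 and 741 to 2422 and 1892. Map3k14 (NIK), the kinase of the noncanonical pathway, was 2.24-fold lower, with 2462 and 2415 in Tconvs and 1087 and 1095 in Tregs. The count of 5 was 2 without the second Tconv library, 9 without the first and 2 with TMM factors, where 1410 of all 12134 genes were higher.

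Of 19 costimulatory and inhibitory receptors and ligands, 9 were higher in Tregs (47.4%, against 13.9% of all genes tested) and 1 was lower, with a median log2 fold change of 0.98. Of the 9, Cd80 and Havcr2 passed the filter through their Treg values alone. With a value above 10 required in every control library 17 were tested and 7 were higher, with a median of 0.87. Icos, the costimulatory receptor of effector Tregs, had 2663 and 1980 in Tconvs and 9239 and 10272 in Tregs. Cd80, a ligand of CTLA-4 and CD28, was at 20 and 0 in Tconvs and stood at 185 and 254 in Tregs, and Pdcd1lg2 (PD-L2) rose 5.41-fold, from 98 and 86 to 505 and 491. Havcr2 (TIM-3) was at 13 and 9 in Tconvs and at 190 and 298 in Tregs. Lair1, an inhibitory receptor for collagen, was 3.17-fold lower in Tregs, with 83 and 97 against 268 and 302. Cd28 itself had 7726 and 7211 in Tconvs and 5707 and 5171 in Tregs, a log2 fold change of -0.46 ± 0.14 that was under the threshold.

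The Tconv libraries were unlike each other for several genes of follicular helper cells, a list put together after the values were seen. Lag3 had 1331 in the first and 239 in the second, against 2543 and 1826 in Tregs, and was called with a log2 fold change of 1.92 ± 0.46. It was 0.69 and not called without the second Tconv library, and 3.15 without the first, and with no minimum value it was not called (adjusted p = 0.07, limma). Tigit had 1274 and 360 in Tconvs and 6410 and 7163 in Tregs, which did not overlap and was called (log2 fold change 3.31 ± 0.35). Pdcd1 (PD-1), at 1867 and 547 against 1835 and 1826, and Cxcr5, the follicular homing receptor, at 2805 and 881 against 3023 and 2680, were not called. Without the first Tconv library their log2 fold changes were 1.73 and 1.69 and both were called. Il21, the cytokine of follicular helper cells, had 493 in the first Tconv library, 74 in the second and 10 and 9, under the floor, in Tregs, which gave at least a 20.5-fold difference of the means. Its log2 fold change of -3.77 was -2.45 without the first Tconv library. The share of follicular helper cells in either Tconv library was not measured.

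Of 23 cytokine and TNF ligand genes, 12 passed the filter, and 8 of the rest were at or under the floor in all 4 libraries, among them Il5, Il9 and Il22, at 0 throughout. Of those tested, 4 were higher in Tregs (33.3%, against 13.9% of all genes tested) and 4 lower (33.3% against 4.37%). Cd40lg, the helper signal to B cells and dendritic cells, was lower, with 2708 and 2771 in Tconvs and 335 and 395 in Tregs (log2 fold change -2.90 ± 0.19, adjusted p = 6.4e-09, limma). Another pair of TNF ligands was lower as well. Tnfsf14 (LIGHT) had 665 and 461 against 165 and 84, and Tnfsf8 (CD30 ligand) had 1446 and 1082 against 529 and 522. Lta, which encodes lymphotoxin α, was higher in Tregs at 641 and 596 against 274 and 277. Ifng was not called, with 105 and 72 in Tconvs and 64 and 71 in Tregs. The higher count was 2 without the second Tconv library and 2 with TMM factors.

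Cytokine receptors went in both directions, with 10 of 28 higher (35.7%, against 13.9% of all genes tested) and 4 lower (14.3% against 4.37%). Il1rl1 (ST2, the receptor of the alarmin IL-33) rose from 37 and 28 in Tconvs to 675 and 657 in Tregs, 20.5-fold, and Il1r2, a decoy receptor for IL-1, from 99 and 36 to 398 and 390. Il9r, Il12rb1 and Il10ra were 5.71-fold, 4.09-fold and 3.01-fold higher. The TGF-β receptors were split. Tgfbr1 was 3.3-fold higher, with 889 and 823 in Tconvs and 3140 and 2509 in Tregs, while Tgfbr2 was 2.55-fold lower, at 5023 and 4545 against 13062 and 11300, and the coreceptor Tgfbr3 10.9-fold lower, at 296 and 268 against 3309 and 2821. Il12rb2, which pairs with Il12rb1 as the IL-12 receptor, and Il18rap were lower in Tregs, at 44 and 62 against 207 and 185 and at 151 and 215 against 482 and 503. With no minimum value Il12rb2 was not called (adjusted p = 0.055, limma). Il7r, the IL-7 receptor of resting T cells, had 7964 and 10915 in Tconvs and 5309 and 7286 in Tregs, a difference of -0.58 ± 0.19 that was under the threshold.

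Of 34 transcription factors tested, 10 were higher in Tregs (29.4%, against 13.9% of all genes tested) and 7 lower (20.6% against 4.37%), with a median log2 fold change of 0.12. Tcf7 (TCF-1) fell from 43076 and 40413 in Tconvs to 8769 and 7466 in Tregs, 5.14-fold, and its relative Lef1 from 17214 and 13874 to 4086 and 3963, 3.86-fold. Satb1, which organises chromatin loops, and Ikzf1 (Ikaros) were 3.09-fold and 2.21-fold lower. Thus the Ikaros family was split, with Ikzf1 lower and Ikzf2, Ikzf4 and Ikzf3 (Aiolos; 2.99-fold) higher. Prdm1 (Blimp-1), the factor of effector Tregs, had 239 and 245 in Tconvs and 1582 and 2080 in Tregs, and Maf had 2043 and 1055 against 6575 and 7023. Ahr, a receptor for ligands from diet and microbiota, stood at 568 and 491 in Tregs against 93 and 76 in Tconvs. Tbx21 (T-bet) and Id2 went the other way, with 819 and 635 against 296 and 250 and with 2292 and 2714 against 578 and 627. Gata3, at 1735 and 1572 against 3154 and 3083, passed the test with a log2 fold change of 0.91, under the threshold. In the broader list of 20 effector Treg genes 13 were higher (65%, against 13.9% of all genes tested) and 2, Id2 and Tbx21, lower (10% against 4.37%), and the median was 2.01. Klrg1, a receptor of terminally differentiated Tregs, led this list at 1218 and 1585 against 38 and 76, 24.6-fold higher.

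Of 20 resting T cell genes, none was higher and 12 were lower in Tregs (60%, against 4.37% of all genes tested), with a median log2 fold change of -1.61. Pde3b, a phosphodiesterase that breaks down cAMP (chromosome 7, 114415281 to 114539251), fell furthest within the list, from 3158 and 4290 in Tconvs to 78 and 97 in Tregs, 42.6-fold. Dapl1, a marker of naive and stem-like T cells, had 2502 and 2857 against 117 and 84, and Igfbp4 had 23323 and 22321 against 1883 and 1489. Ccr7, the receptor that draws T cells into lymph nodes, was 5.21-fold lower, with 17030 and 17109 against 3756 and 2794, and S1pr1, the receptor for egress, 2.26-fold lower. Klf2, the factor that drives S1pr1, had 11956 and 12384 against 7153 and 6559, a log2 fold change of -0.83 that passed the test but not the threshold.

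**Figure D3:**
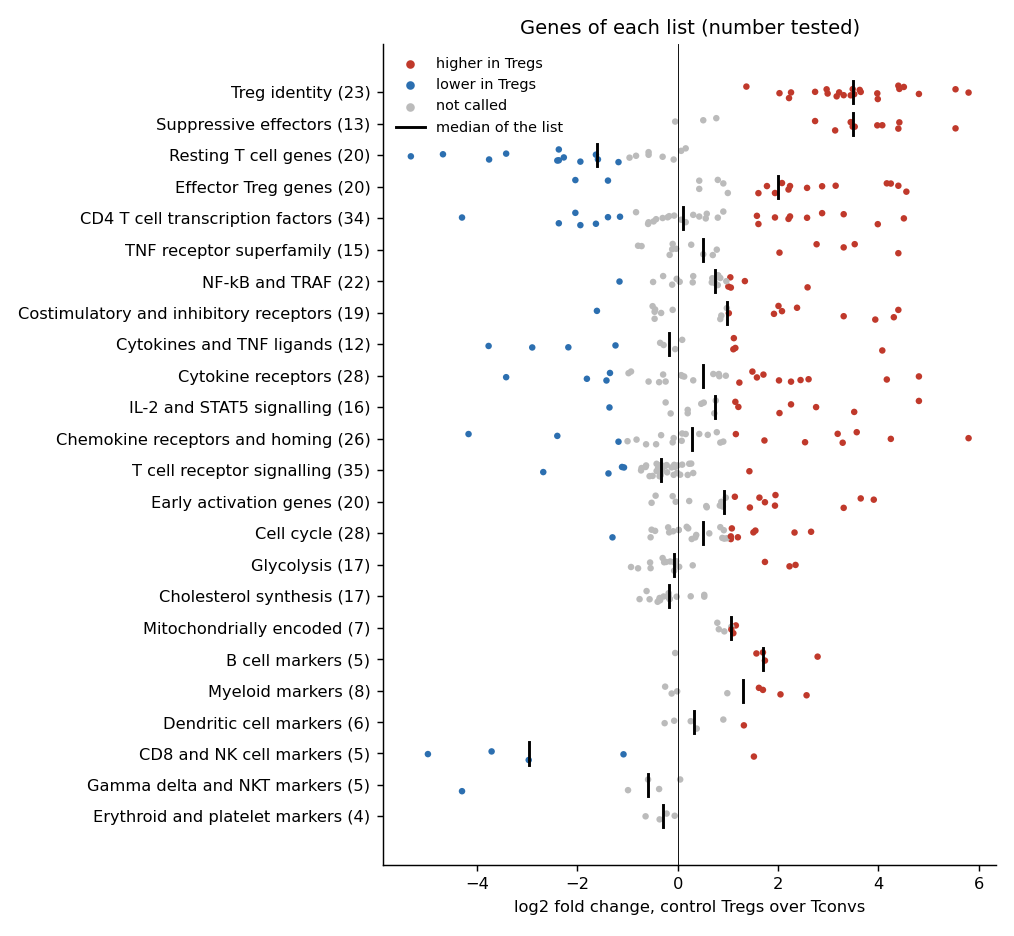
Log2 fold change of control Tregs over Tconvs (horizontal axis) for each tested gene of 24 lists (rows, with the number tested), coloured red where higher in Tregs, blue where lower and grey where not called, with a black bar at the median of the list. Treg identity genes and suppressive effectors sit farthest to the right, with a median of 3.49 each. CD8 and NK cell markers sit farthest to the left at -2.97, resting T cell genes lie at -1.61, and T cell receptor signalling genes have a median of -0.33.

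Of 26 chemokine receptor and homing genes, 8 were higher in Tregs (30.8%, against 13.9% of all genes tested) and 3 lower (11.5% against 4.37%), with a median log2 fold change of 0.30. Ccr8, a receptor of tissue and tumour Tregs, had 59 and 65 in Tconvs and 1223 and 1323 in Tregs, 20.5-fold higher. Ccr6, Ccr4 and Ccr3, which guide cells to gut, skin and sites of inflammation, were 12.6-fold, 5.8-fold and 11.9-fold higher. Cxcr6, the receptor of CXCL16 carried by innate-like and liver T cells, was the reverse, at 1056 and 1388 in Tconvs and 44 and 88 in Tregs. The integrin chain Itgb1 had 6817 and 5671 against 11078 and 10364, under the threshold.

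Of 35 genes of T cell receptor signalling 1 was higher in Tregs and 4 were lower (11.4%, against 4.37% of all genes tested), 14 more passed the test with a smaller change, and the median was -0.33. Themis, which tunes the strength of the receptor signal during selection, was lower in Tregs. It had 3644 and 3838 in Tconvs and 631 and 530 in Tregs, 6.44-fold lower (log2 fold change -2.68 ± 0.13, adjusted p = 2.9e-10, limma). Cbl, a ubiquitin ligase that turns off receptor signalling, was the gene that was higher, with 10850 and 11831 against 3841 and 4579. Cd4 and the constant region Trac had 27542 and 25914 against 16290 and 16100 and 25308 and 26063 against 18730 and 19611, log2 fold changes of -0.72 and -0.42. Of 74 V segments of the T cell receptor loci, 23 were lower (31.1%, against 4.37% of all genes tested) and 1 higher (1.35% against 13.9%). The higher one was Trbv12-1 (641 and 587 in Tregs against 261 and 308), named here after its values were seen. Its log2 fold change was 0.98 without the first Tconv library and 0.96 with TMM factors or with the trend over gene length removed, and it was not called in these cases. Their sum was 34743 and 34434 in Tconvs and 21448 and 20393 in Tregs, and their median log2 fold change was -0.81. Without the first Tconv library 14 V segments were lower and none higher. Sequences of V segments resemble each other, so reads may have been split between them.

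Genes that follow receptor stimulation were higher in Tregs in 9 of 20 cases (45%, against 13.9% of all genes tested) and lower in none. CD25-bearing cells had been depleted from Tconvs only, and the part of this step in these differences was not tested. Dusp4, a phosphatase of ERK, had 75 and 49 in Tconvs and 1019 and 942 in Tregs, 15.8-fold higher, and Irf4 had 808 and 413 against 2267 and 2194. Dusp1, a phosphatase of the same family, had 398 and 390 against 1058 and 1091. Mki67, the marker of cycling cells, was 6.36-fold higher in Tregs, at 1757 and 2045 against 254 and 344. Of 28 cell cycle genes 8 were higher (28.6%, against 13.9% of all genes tested) and 1, Stmn1, lower (3.57% against 4.37%). Replication genes were among those under the threshold. Mcm2 and Pcna had 2530 and 2219 against 1738 and 1572 and 3492 and 3468 against 2577 and 2220, log2 fold changes of -0.52 and -0.54. With TMM factors 5 cell cycle genes were higher.

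Of 17 genes of glycolysis 3 were higher in Tregs, a share of 17.6% that is near the 13.9% of all genes tested, namely the glucose transporter Slc2a3 (3761 and 3818 against 1209 and 1053), the lactate exporter Slc16a3 (626 and 587 against 153 and 86) and Hk2 (224 and 123 against 31 and 32), and the median of the list was -0.08. The enzyme Ldha, which makes lactate, had 15611 and 17063 against 11762 and 10548, a log2 fold change of -0.55 that was under the threshold. Of 17 genes of cholesterol synthesis none was called, and 6 passed the test with smaller changes, in both directions.

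Beyond the lists, a gene far higher in Tregs was Neb, which encodes the giant muscle protein nebulin (chromosome 2, 52136647 to 52378474). Neb had values of 11 and 26 in Tconvs and 1519 and 2645 in Tregs, 113-fold higher (log2 fold change 6.50 ± 0.31). It passed the filter through its Treg values alone, as did Ky, Matn2, Cep112 and Bco2 below, so these differences are given as a description. Ky, also known from muscle, had 4 and 0 in Tconvs and 301 and 381 in Tregs. Lamc1, the γ1 chain of laminin, rose from 107 and 113 to 3810 and 4261, and Matn2, a matrix protein, from 10 and 30 to 602 and 749. Cep112 and Bco2, a carotenoid oxygenase, were at or under the floor in both Tconv libraries, at 0 and 3 each, and stood at 180 and 355 and at 175 and 224 in Tregs, at least 57.2-fold and 42.7-fold higher. Ptprv, F13a1 (the A subunit of factor XIII), Atp6v0d2 (a subunit of the proton pump) and C78197 were 31.2-fold to 37.6-fold higher. Together with Itgae, Lrrc32 and Il2ra above and the immunoglobulin segments Ighd4-1 and Ighj1 below, the genes named here from Neb on were the 15 with the largest log2 fold change on the value plus 5, an order that moves with the pseudocount.

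On the other side stood Ggt5, a γ-glutamyltransferase (chromosome 10, 75589340 to 75617200), with 705 and 584 in Tconvs and 0 in both Treg libraries, at least 46.6-fold lower. Vipr1, the receptor of vasoactive intestinal peptide (chromosome 9, 121642716 to 121672954), was abundant in Tconvs, at 4773 and 4432, and fell to 78 and 149, 40.6-fold. Pdlim4, an adaptor of the cytoskeleton, had 1797 and 1704 against 15 and 40, and Lypd6b had 667 and 685 against 5 and 14. Slc16a5, a monocarboxylate transporter, was 33.3-fold lower, at 54 and 53 against 1902 and 1662. Wnt5b, Elovl7, Qpct and Klrd1 were at 0 in both Treg libraries, with Tconv values between 103 and 183, which gave differences of at least 8.45-fold to 11.9-fold. The uncharacterised A530021J07Rik had 730 and 716 against 0 and 14.

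Of the most abundant genes outside the lists, Samhd1, which degrades deoxynucleotides, was 2.65-fold higher in Tregs at 34107 and 35119, and Ahnak, a giant scaffold protein, 12-fold higher at 11690 and 16196 against 776 and 1543. Macf1, Huwe1 and Prrc2c were higher as well, although the log2 fold change of Prrc2c was 0.86 and under the threshold with the trend over gene length removed, and Macf1 had 2020 in the first Tconv library and 6073 in the second, so that its log2 fold change of 2.15 was 1.36 without the first. Gm42418, which overlaps ribosomal RNA, had 27924 and 40411 in Tconvs and 46859 and 106670 in Tregs. Its log2 fold change of 1.07 was 0.48 without the second Treg library and 0.81 without the first Tconv library, and not called in either case. Nor was it called with TMM or median-of-ratios factors, with no minimum value, at an adjusted p under 0.01 or with the trend over gene length removed. Fam78a, Arl4c and Selenop, a plasma selenium carrier, were among the most abundant genes that were lower, at 4.14-fold, 3.6-fold and 2.79-fold lower.

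All 7 genes of the immunoglobulin heavy chain locus in a list made after the values were seen were higher in Tregs. Some, such as Ighd4-1, passed the filter through their Treg values alone, and with a value above 10 required in every control library 3 of them were tested and were higher, with a median log2 fold change of 2.79 rather than 4.08. Ighm had 11551 and 12353 in Tconvs and 36883 and 41126 in Tregs, 3.26-fold higher, and the joining segment Ighj1 had 53 and 44 against 1587 and 1800, 34.9-fold higher. The diversity segment Ighd4-1, at 6 and 5 against 369 and 416, was 71.4-fold higher. The B cell marker Ms4a1 had 12 and 9 in Tconvs and 15 and 27 in Tregs, and Pax5 had 48 and 19 against 10 and 22. Of 12 B cell markers 5 passed the filter and 4 were higher, of which Ighm, Ighd and Igkc are immunoglobulin genes. The other, Cd79b, part of the B cell receptor, had 49 and 67 in Tconvs and 165 and 250 in Tregs. The sum of the list was 12201 and 12790 in Tconvs and 38075 and 42453 in Tregs, nearly all of it Ighm. The part of B cell RNA in these values was not tested.

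Of 8 myeloid markers tested 4 were higher in Tregs (50%, against 13.9% of all genes tested), namely Csf1r, Adgre1, Cd68 and Fcer1g. The sum of the 13 genes of the list was 1817 and 1815 in Tconvs and 3272 and 3419 in Tregs, with Ly6g at 0 in all 4 libraries. Csf1r had 449 and 417 against 1500 and 1205. Of 6 dendritic cell markers tested Cd74 was higher, with 2364 and 3214 in Tregs and 801 and 1509 in Tconvs. Without the first Tconv library its log2 fold change was 0.87 and it was not called. The part of myeloid and dendritic cell RNA in the results was not tested. None of 4 erythroid genes was called, and 2 were lower without the second Treg library. Of 5 CD8 and NK cell markers tested, 4 were lower in Tregs (80%, against 4.37% of all genes tested) and 1 was higher. Their log2 fold changes ran from -4.98 to 1.52. With a value above 10 required in every control library 4 were tested, of which 2 were lower and 1 higher. Cd8b1, whose protein was targeted by the depletion, was lower in Tregs, at 292 and 346 against 703 and 653. Without the first Treg library its log2 fold change was -0.96 and it was not called. Cd8a was at 17 and 28 in Tconvs and 25 and 71 in Tregs.

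Of 9 genes of innate-like T cells, a list put together after the values were seen, 7 were lower in Tregs (77.8%, against 4.37% of all genes tested) and none higher. Several passed the filter through their Tconv values alone, so the share is a description. With a value above 10 required in every control library 4 were tested and 2 were lower, with a median of -1.66. In an earlier list of gamma delta and natural killer T cell markers, 1 of 5 tested was lower (20%). The median log2 fold change of that list was -0.59. Zbtb16 (PLZF), the factor of natural killer T cells, had 119 and 151 in Tconvs and 0 and 5 in Tregs, at least 9.75-fold lower. Klrk1 (NKG2D), Klrb1c (NK1.1) and Zfp683 (Hobit) had 113 and 199, 403 and 423 and 240 and 216 in Tconvs and 5 and 9, 64 and 36 and 15 and 5 in Tregs. Ncr1, which marks NK cells, was at 0 in all 4 libraries, and Trdc, the δ chain constant region, was not called, with 208 and 247 against 117 and 189 (adjusted p = 0.16, limma). The share of such cells among Tconvs was not measured.

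Features of the RNA differed between the subsets in the same libraries. Noncoding RNAs that stay in the nucleus were higher in Tregs, in 8 of 9 cases of a list put together after the values were seen. Malat1 had 674 and 741 in Tconvs and 7415 and 12505 in Tregs, 14.1-fold higher, and Xist, which coats the inactive X chromosome, had 1057 and 1034 against 7488 and 10640, 8.67-fold higher. Neat1 and Kcnq1ot1 were 3.69-fold and 6.1-fold higher. Tsix, 8.7-fold higher, lies antisense to Xist, and the strand setting of the counting was not given in the sources used here, so its reads cannot be told from those of Xist. The spliced RNA Gas5, which is exported, had 2618 and 2886 against 2727 and 2803. Snhg1, another host of small nucleolar RNAs, had 363 and 480 against 626 and 684, a log2 fold change of 0.64 that passed the test but not the threshold. Mitochondrially encoded genes took 0.271% and 0.685% of the counts in Tconvs and 0.785% and 0.963% in Tregs, and 3 of 7 were called higher. None of them was without the first Tconv library, without the second Treg library or with TMM or median-of-ratios factors, and all 7 were without the second Tconv library. Ribosomal protein genes, none of which was called, had a median log2 fold change of -0.44.

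Among protein-coding genes the median log2 fold change rose from -0.24 in the group with the shortest genes (of 5 groups of equal size) to 0.32 in the group with the longest, and 8.19% and 21.9% of genes in these groups were called higher, whereas 5% and 4.72% were called lower. With the trend of each library on gene length removed, a correction chosen after the data were seen, 1294 genes were higher and 756 lower, so that higher genes made up 63.1% of the calls rather than 76%, and 1293 of the 1682 higher and 529 of the 530 lower genes kept their call. Processed pseudogenes, copies of messenger RNA with few reads of their own, were higher in 92 and lower in 2 of the 213 that passed the filter, out of 7022 in the table. A pseudogene with few reads could pass through its Treg values alone. With no minimum value 171 of 2478 were higher, against 2043 of all 24239 genes. Without the second Treg library 47 were higher. Reads of a processed pseudogene can come from its parent gene. With protein-coding genes alone 1330 of 10495 genes were higher and 409 lower. The part of nuclear RNA and of pseudogenes in the counts of higher genes was not tested further.

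**Figure D4:**
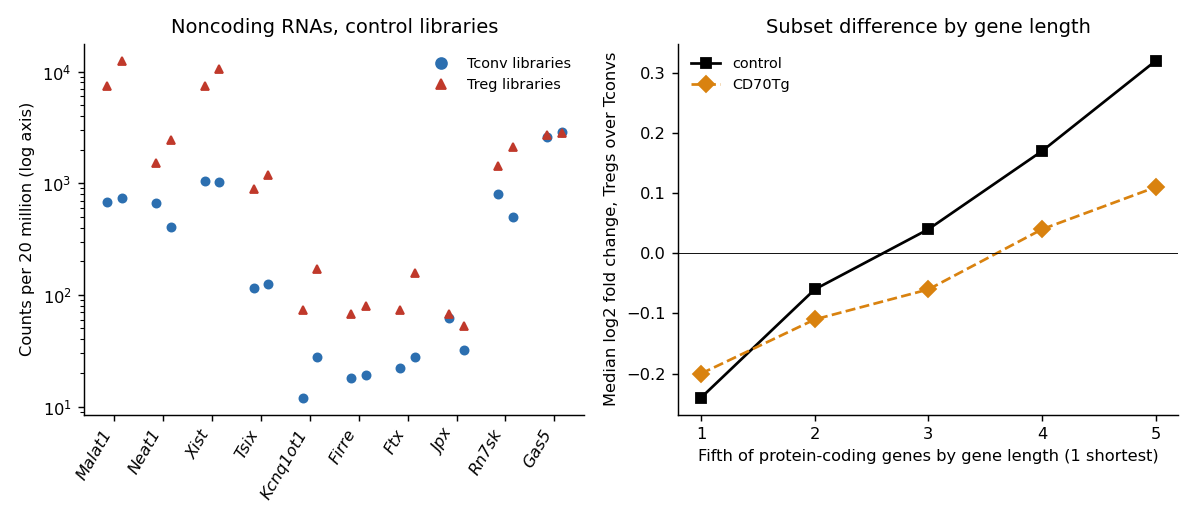
Left, values of 9 nuclear noncoding RNAs and of Gas5 in each control library (vertical axis, CP20M, log axis), with Tconv libraries as circles and Treg libraries as triangles. Right, median log2 fold change of Tregs over Tconvs in 5 equal groups of protein-coding genes by gene length, from the shortest (1) to the longest (5), in control mice (squares) and CD70Tg mice (diamonds). Malat1 and Xist are higher in both Treg libraries while Gas5 is level, and the control median climbs from -0.24 to 0.32.

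The same subsets in CD70Tg mice, which share no library with the control mice, were compared in the same fit. There 1280 genes (10.5%) were higher in Tregs and 560 (4.62%) lower. Of the 2212 genes called in control mice, 1410 were called in the same direction in CD70Tg mice, which is 63.7% of the control calls and 76.6% of the CD70Tg calls. In direction, 97.6% of the genes higher in control Tregs and 98.7% of those lower had the same sign in CD70Tg mice, and 5 were called in opposite directions. The CD70Tg Treg libraries were shallow as well, at 1.9 and 3.65 M reads on genes. From the shortest to the longest genes the CD70Tg median rose from -0.2 to 0.11, and 144 of 213 processed pseudogenes were higher in CD70Tg Tregs. The part of such features in the shared calls was not tested. The median of the 1682 higher genes was 1.57 in control and 1.25 in CD70Tg mice, and that of the 530 lower genes was -1.44 and -1.27. These genes were chosen by their values in control mice, so no test was made of the medians. Foxp3, Ikzf2, Il2ra, Lrrc32 and Itgae had log2 fold changes of 4.11, 4.27, 4.80, 5.47 and 5.39 in CD70Tg mice against 3.99, 4.51, 4.81, 5.54 and 5.80 in control mice.

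The difference between the subsets itself differed between the genotypes for 118 genes (0.972%) at an adjusted p under 0.05 in limma. That count was 68 without the first control Treg library and 61 without the second, and 5 when no minimum value was set. Of these, 71 were higher in control Tregs, 9 lower and 38 not called there. The log2 fold change of all 71 was lower in CD70Tg than in control mice, below 0 for 18 of them, and that of 7 of the 9 was higher. The 71 were chosen partly by high values in control mice. Plek, Pik3ap1, Car5b, Serpinb1a and Itgad, named after their values were seen, were called higher in control Tregs, by 1.43 to 2.55 on the log2 scale, and lower in CD70Tg Tregs. Serpinb1a was not called in control mice without the first Tconv or the first Treg library (adjusted p = 0.12 and 0.14, limma) or with no minimum value (0.14). Havcr2 had a log2 fold change of 3.94 in control and -0.38 in CD70Tg mice, where the Tconv libraries stood at 666 and 1123 instead of 13 and 9. Entpd1 went from 3.45 to 0.84, with 1046 and 1573 in CD70Tg Tconvs, Gzmb from 3.53 to 0.43, with 1323 and 2941, and Il10 from 4.08 to 0.36, with 340 and 629. For Havcr2, Gzmb and Il10 both CD70Tg Tconv libraries lay above both control Treg libraries, and for Entpd1 they lay on either side of them. Il1rl1, Klrg1, Prdm1, Rgs1 and Ctla4 kept a difference over 1 in CD70Tg mice that was smaller than in control mice. With each of the 8 libraries left out in turn, the genotype difference stayed past the threshold throughout for Havcr2, Entpd1, Gzmb, Il1rl1, Prdm1, Rgs1, Plek, Car5b and Itgad, and not for Il10, Klrg1, Ctla4, Pik3ap1 and Serpinb1a.

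**Figure D5:**
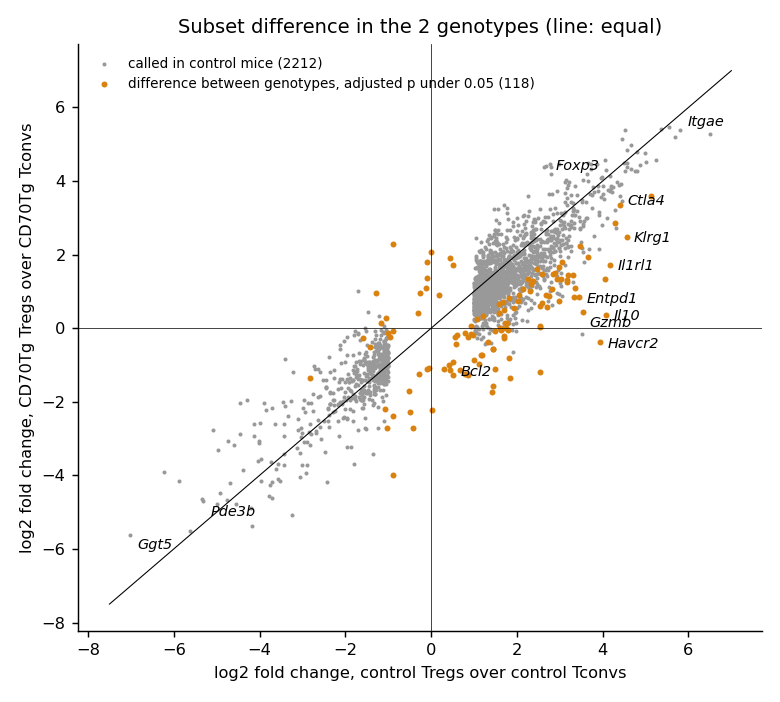
Log2 fold change of Tregs over Tconvs in control mice (horizontal axis) against that in CD70Tg mice (vertical axis) for the 2212 genes called in control mice (grey) and the 118 genes whose subset difference differed between the genotypes (orange), with a line of equality. Grey points follow the line in both directions, while Havcr2, Il10, Gzmb and Entpd1 lie far below it.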

How the data were processed

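The study's authors trimmed the paired-end reads of 8 libraries with Trimmomatic 0.36, aligned them to mm10 with STAR 2.5.3 and counted reads per gene with HTSeq 0.9.1. They deposited a table of counts per 20000000 (CP20M) rounded to whole numbers, which is treated here as a score, not as counts. Of 52636 rows 4131 with clone names were left out. The columns carry no replicate number, so no column was tied to a single sample. Gene positions and types came from GENCODE M21 (GRCm38) for 99.7% of the genes.

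Differences were fitted with limma 3.58.1 in R 4.3.3 on log2(value + 5) over all 8 libraries in 4 groups of 2, with no covariate, keeping genes that reached 60 in 2 or more of the 4 control libraries. Fold changes on this scale understate those of low genes. Calls needed a log2 fold change beyond 1 in either direction with a Benjamini-Hochberg adjusted p under 0.05. Differences between genotypes needed the adjusted p alone. Values of at most 3 reads were taken as the floor, which covers counting error only. Named genes were the members of the gene lists, the 15 called genes with the largest change in each direction whose libraries did not overlap, and the 10 most abundant other called genes in each direction. The members and lists were chosen with earlier results of these data known. Trbv12-1 and the genes of lists made after the values were seen fall outside that rule. Alternatives were other pseudocounts, filters, scalings and thresholds, each library left out, values raised to the highest floor, the control libraries alone, limma-voom on recovered reads and clone-named rows kept, and, chosen after seeing the data, a length correction and protein-coding genes alone. Results on a few genes are not reported here.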

Additional observations from a re-analysis of the deposited data

Results flagged for a closer look

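The difference between Tregs and Tconvs differed between control and CD70Tg mice for 23 of the genes named above, by the interaction term of the limma fit (adjusted p under 0.05). Each value that follows is the log2 fold change in CD70Tg mice minus that in control mice, and a negative value means a lower ratio of Tregs to Tconvs in CD70Tg mice. Among surface receptors and enzymes it was -4.31 for Havcr2, -2.61 for Entpd1, -2.09 for Klrg1, -2.11 for Pdcd1, -1.05 for Ctla4 and -0.92 for Itgb1. Among cytokine receptors it was -2.45 for Il1rl1, -1.27 for Il12rb1, -1.17 for Il10ra and -0.91 for Il2rb. Among transcription factors it was -1.38 for Prdm1, -1.39 for Irf4 and -0.91 for Ikzf3. For the effectors Il10 and Gzmb it was -3.72 and -3.1, for Rgs1, a regulator of G protein signalling, -1.87, for Lamc1 -1.53 and for Ahnak -1.71. For Plek, Pik3ap1, Car5b, Serpinb1a and Itgad it was -2.99, -2.61, -3.2, -3.16 and -3.73. The CD70Tg log2 fold change itself was -1.26 for Pdcd1, which was called lower in CD70Tg Tregs, and -0.38 and -0.13 for Havcr2 and Itgb1, which were not called there. With each of the 8 libraries left out in turn, a check added after the data were seen, all 23 differences stayed negative. Of these, 9 stayed past the threshold throughout (Entpd1, Plek, Havcr2, Itgad, Gzmb, Car5b, Il1rl1, Prdm1 and Rgs1), and 14 lost it without 1 to 6 of the libraries. Without the first or the second CD70Tg Treg library 12 and 11 lost it, without the first or the second control Treg library 8 and 12, without the second CD70Tg Tconv library 10, without either control Tconv library 3 each and without the first CD70Tg Tconv library 0. The control Tconv libraries had 1867 and 547 for Pdcd1, and its difference was -1.23 without the second of them and -3 without the first. The difference of Irf4 was -0.91 without the second control Tconv library, and that of Il12rb1 was -0.81 without the second CD70Tg Tconv library.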

How the results depend on the processing

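No paired analysis was possible because the columns of the table carry no replicate numbers. No gene called in control mice changed direction and stayed called under any alternative, and the counts of genes higher and lower in Tregs stayed within 1.5 times of 1682 and 530 under all alternatives but one. With no threshold on the fold change, 3322 genes were higher, 2330 lower and 3991 of them shared with CD70Tg mice. With each control library left out in turn, 1440 to 1741 genes were higher, 454 to 554 lower and 1263 to 1411 shared with CD70Tg mice, the lone library being assumed to vary like the other groups. The number of genes whose subset difference differed between the genotypes was less stable, at 61 to 160 with a library left out, 42 at an adjusted p under 0.01 and 5 of 24239 genes with no minimum value. The cause was not tested. With TMM factors the median of all genes moved from 0.05 to -0.09, 1410 genes were higher and 704 lower, and higher genes made up 66.7% of the calls. Limma-voom on the recovered reads gave 1752 and 537.

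Among 162 named genes, the 3 that changed sign were not called where they did. Gas5 had a log2 fold change of -0.13 with TMM factors, -0.05 with median-of-ratios factors, -0.06 without the first Tconv library and -0.01 without the second Treg library. Tgfb1 had 0.05 without the first Tconv library and 0.05 without the second Treg library, and Pdcd1 -0.03 without the second Tconv library. With each library left out, these log2 fold changes ran from -0.06 to 0.08 for Gas5, from -0.16 to 0.05 for Tgfb1 and from -0.03 to 1.73 for Pdcd1, which was called at the upper end. Depth limits the low genes most, since 3 reads gave values of up to 14.6 in the Treg libraries.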
